A study of Rattus norvegicus with 12 samples.

Results

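The 3 libraries of replicate 3 from attached rat cardiac progenitor cells, 1 each on fibronectin, on laminin and on dishes without coating, were set against the 6 libraries of replicates 1 and 2 from the same surfaces. They are 3 of the 12 libraries of the series, which also holds 3 libraries of cells in suspension. The comparison was chosen by measured values: attached replicate 3 stood apart from the other attached libraries in an earlier principal component analysis of these counts. Its values are therefore given as a description, with no test. Tests were run on replicate 3 in suspension, on replicate 2 against replicate 1 and on differences of the replicate 3 shift between surfaces. The surface differences rest on the same replicate 3 libraries that set the choice, so they are not independent of it.

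All groups came from the same clonal line of cardiac progenitor cells, with no genetic change given in the labels, grown with serum, leukemia inhibitory factor, basic fibroblast growth factor, erythropoietin and glutathione. Attached cells were seeded sparsely on dishes coated with fibronectin, coated with laminin or left bare, and held for 2 h in medium with 0.1% serum. How the suspension cells were handled is not described apart from this shared protocol. The labels give each library a batch that equals its replicate number, so the 3 dishes of replicate 3 share a batch and are not independent of it. The count files carry a date that is shared within a batch and differs between batches, without saying what it dates. Because the line is 1 clone and batch 3 is 1 batch, p-values measure only the spread between these libraries.

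Attachment to fibronectin and laminin runs through integrins, heterodimeric receptors that tie matrix to the actin cytoskeleton and to growth and survival signalling. A dividing progenitor also depends on cohesin and condensin, ring-shaped complexes that hold and fold chromosomes, on centrosomes that organise the spindle, and on SR and hnRNP proteins that choose splice sites.

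The libraries held between 15875160 and 20852160 counts. In attached replicate 3 the ribosomal RNA genes took 1.25% to 2.55% of the counts and 11412 to 11539 genes had a count, against 0.448% to 4.24% and 11449 to 11574 genes in attached replicates 1 and 2. Fibroblast and mesenchyme markers had the largest sum of the marker lists, 9847 to 10090 CPM (counts scaled to a common library size) in attached replicate 3. In attached replicates 1 and 2 they summed to 9211 to 9560 CPM. Over the 12 libraries Vim held 1103739 counts, S100a4 466674 and Col1a1 248764. Of the same list Dcn and Tcf21 had 0 counts, Lum and Fap 1 each and Thy1 18. Of 12 cardiomyocyte markers in the files, 4 (Myh7, Myl2, Myl7 and Pln) were at 0 in every library, where a zero leaves room for up to 3 counts in all. The cardiomyocyte list summed to 20.1 to 22.8 CPM in attached replicate 3 and 14.7 to 21.4 CPM in attached replicates 1 and 2. Neural and Schwann cell markers summed to 186 to 188 CPM in attached replicate 3, against 201 to 237 CPM in attached replicates 1 and 2, with Sox10 at 0. Endothelial markers summed to 139 to 144 CPM in attached replicate 3, against 103 to 146 CPM in attached replicates 1 and 2. Most of this was Flt1, with 29011 counts over the 12 libraries, against 239 for Vwf, 59 for Pecam1 and 10 for Cdh5. Blood markers lay at 59.4 to 65.5 CPM in attached replicate 3, against 50.7 to 58.5 CPM in attached replicates 1 and 2, with Hbb and Hba-a1 at 0. Adipocyte and smooth muscle markers lay at 28.5 to 32.4 and 371 to 402 CPM in attached replicate 3, against 23.0 to 29.2 and 363 to 427 CPM in attached replicates 1 and 2. The part of these markers in the results below was not tested.

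On the first principal component of the 9 attached libraries, which carried 61.3% of the variance, replicate 3 lay at 13.6 on fibronectin, 29.3 on laminin and 37.7 on no coating. The 6 libraries of replicates 1 and 2 lay between -17.5 and -8.92. The difference was lopsided. Of 10020 tested genes, 468 (4.67%) were at least 2-fold lower in replicate 3 and below both other libraries on each of the 3 surfaces, whereas 2 genes (0.02%) were at least 2-fold higher in the same sense. Without the fold limit, 2682 genes (26.8%) lay below and 2458 genes (24.5%) above both other libraries on every surface. Without the no coating replicate 3 library, 305 genes were at least 2-fold lower on the other surfaces and 7 higher.

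**Figure D1:**
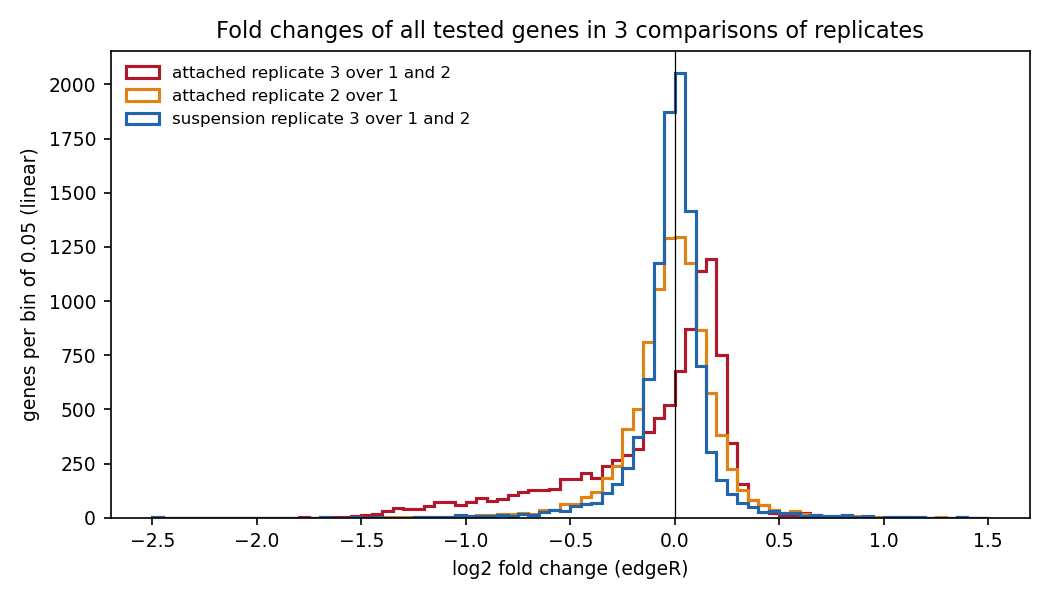
Number of tested genes (vertical axis) by log2 fold change (horizontal axis, bins of 0.05) for attached replicate 3 over 1 and 2, attached replicate 2 over 1 and suspension replicate 3 over 1 and 2. The curve of attached replicate 3 has a long tail to the left, in which 468 genes lie at or beyond 2-fold, and a right side that ends near its peak.

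The plot of fold changes shows this shape. Most genes of attached replicate 3 sat slightly above 0, with a median log2 shift of 0.03 over all tested genes, and the tail of lower genes was long. Among the 468 genes the shifts ran to -2.24 and had a median of -1.18, a 2.26-fold lower level. Just inside the 2-fold line were Mbip and Kdm4c, and just outside it Odf2l and Septin10. Fitted with edgeR as a description, 4015 genes (40.1%) would be called, 1490 (14.9%) higher and 2525 (25.2%) lower, a split of 37.1% higher. Scaling by library size alone turned this split to 53.2% higher (2633 against 2320 genes). Leaving out the no coating library of replicate 3 lowered the 4015 calls to 2106 (287 higher and 1819 lower), and leaving out its laminin library lowered them to 2237 (378 higher and 1859 lower). The higher calls thus moved more than the lower ones. With the replicate as a block 2538 genes would be called higher and 2847 lower. In bulk RNA, fewer cells that express a gene and less RNA per cell cannot be told apart.

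The gene with the lowest shift among those of at least moderate level was Zfp386, a zinc finger gene. It had 6.99, 3.65 and 4.29 CPM in replicate 3 on fibronectin, laminin and no coating, against 14.5 and 16.6, 14.9 and 17.6, and 17.1 and 14.7 CPM in replicates 1 and 2. Every replicate 3 dish lay under every other attached dish, and the log2 shift was -1.68 ± 0.17 (SE). Esf1, known in yeast as a nucleolar factor of ribosomal RNA processing, had 16.7, 17.1 and 10.9 CPM in replicate 3, against 36.6 and 51.3, 39.3 and 60.1, and 49.1 and 42.6 CPM in replicates 1 and 2. Pnisr, a serine- and arginine-rich nuclear speckle protein, had 39.5, 28.7 and 26.1 CPM in replicate 3, against 90.2 and 111, 78.5 and 99.8, and 92.0 and 82.7 CPM in replicates 1 and 2. The groups did not overlap for either gene, with shifts of -1.65 ± 0.18 and -1.56 ± 0.11.

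The rest of the 14 lowest named genes lay between -1.59 and -1.47. They were the splicing factor gene Nsrp1, Swt1, whose yeast namesake is an RNA endonuclease, the centriolar satellite scaffold Pcm1, the Cdc42 exchange factor Dock11, the mitotic kinesin Kif20b, the copper-carrying oxidase ceruloplasmin (Cp), the ciliary transition zone gene Cep290, the helicase-like Hltf, the vascular stability gene Krit1, the zinc finger gene Zfp638 and the cytoskeletal GTPase Septin7. Septin7 had 120, 111 and 71.2 CPM in replicate 3, against 232 and 329, 241 and 345, and 251 and 251 CPM in replicates 1 and 2. In all 14 the fibronectin dish had the smallest shift and in 13 of 14 the no coating dish the largest.

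Genes higher in replicate 3 differed by less. Krt14, a basal epithelial keratin, had 7.62, 6.34 and 6.05 CPM in replicate 3 on fibronectin, laminin and no coating, against 4.002 and 4.53, 3.64 and 4.31, and 3.50 and 4.16 CPM in replicates 1 and 2, a log2 shift of 0.73 ± 0.11. Hr, the hairless corepressor, had 29.6, 35.9 and 37.7 CPM in replicate 3, against 24.1 and 22.3, 21.5 and 24.3, and 26.0 and 29.5 CPM in replicates 1 and 2. Adh1c, an alcohol dehydrogenase, had 25.5, 27.3 and 25.8 CPM in replicate 3, against 20.4 and 17.3, 22.7 and 19.9, and 18.7 and 16.6 CPM in replicates 1 and 2. Both genes lay above their own surface's other libraries throughout, with shifts of 0.48 ± 0.08 and 0.45 ± 0.08. The 14 highest named genes spanned 0.43 to 0.73. They also held the matrix-associated Tinagl1, the cadherin Cdh16, the phosphatase gene Inpp5j, Psca, Agap2, Nagpa, the sialidase Neu2, Smagp, Lrrc20, the keratin Krt15 and Tnxa-ps1. Krt15, at 0.43 ± 0.24, had 20.7, 26.8 and 26.7 CPM in replicate 3 and 19.6, 26.3 and 25.7 CPM in replicate 1. In replicate 2 it had 8.89, 14.5 and 15.7 CPM, so that replicate 3 lay close to replicate 1. The 2 genes past 2-fold were both scarce: Gprc5c had 1.05, 1.07 and 0.998 CPM in replicate 3 and 0.177 to 0.622 CPM in replicates 1 and 2, and Grip2 had 1.31, 1.07 and 1.17 CPM and 0.118 to 0.576 CPM.

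**Figure D2:**
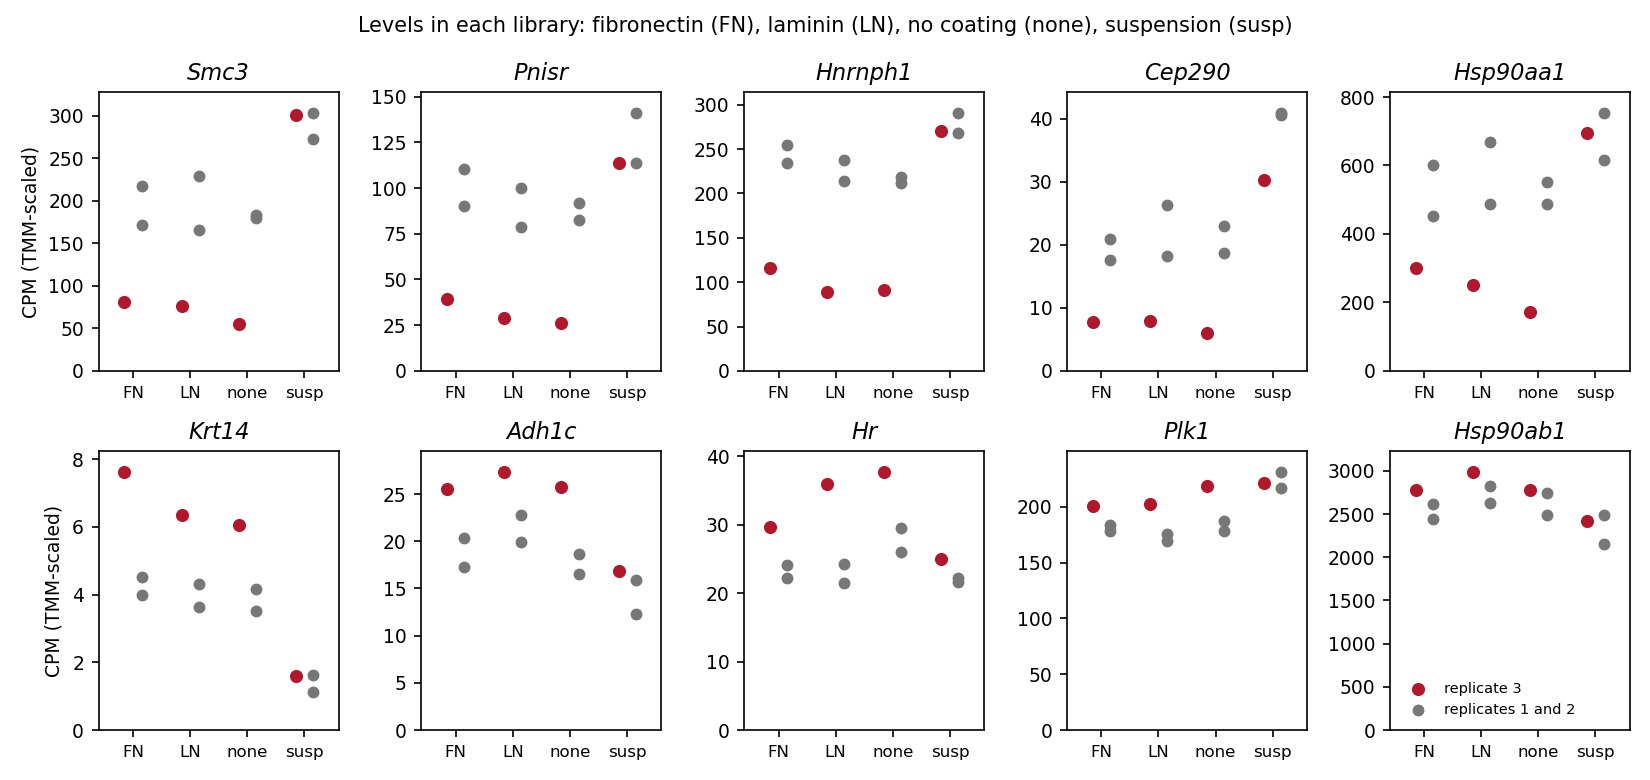
TMM-scaled CPM (vertical axes, from 0) of 10 genes in each of the 12 libraries, by surface (horizontal axis). Replicate 3 is red and replicates 1 and 2 are grey; in the upper row the red attached points lie below the grey ones on all 3 surfaces and in the lower row above them, and in suspension the red point lies close to the grey ones for most genes.

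Promoter windows of members that the results turn on are shown here, 250 bases before to 50 bases after the annotated start, as RefSeq gives them for assembly GRCr8, written 5′ to 3′ on the gene's strand with CG dinucleotides in capitals. Smc3, Hnrnph1 and Pnisr stand for lower genes of chromosome structure and splicing, and Adh1c is among the higher genes. The windows are chr1:262606841-262607140 for Smc3, chr10:35194383-35194682 for Hnrnph1, chr5:40192485-40192784 for Pnisr and chr2:229470453-229470752 for Adh1c, all on the plus strand.
Smc3: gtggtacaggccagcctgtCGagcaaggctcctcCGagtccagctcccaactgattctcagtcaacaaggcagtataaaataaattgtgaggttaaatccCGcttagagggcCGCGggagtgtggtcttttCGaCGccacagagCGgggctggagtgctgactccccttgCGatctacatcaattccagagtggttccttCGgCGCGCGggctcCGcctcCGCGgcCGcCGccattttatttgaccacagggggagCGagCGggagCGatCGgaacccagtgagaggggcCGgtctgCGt
Hnrnph1: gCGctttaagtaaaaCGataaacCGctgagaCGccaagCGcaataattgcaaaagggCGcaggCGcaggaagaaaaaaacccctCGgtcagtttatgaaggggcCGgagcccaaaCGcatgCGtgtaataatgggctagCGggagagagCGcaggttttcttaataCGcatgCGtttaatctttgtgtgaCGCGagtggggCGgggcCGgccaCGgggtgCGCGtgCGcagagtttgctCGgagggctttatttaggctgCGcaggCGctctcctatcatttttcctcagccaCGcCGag
Pnisr: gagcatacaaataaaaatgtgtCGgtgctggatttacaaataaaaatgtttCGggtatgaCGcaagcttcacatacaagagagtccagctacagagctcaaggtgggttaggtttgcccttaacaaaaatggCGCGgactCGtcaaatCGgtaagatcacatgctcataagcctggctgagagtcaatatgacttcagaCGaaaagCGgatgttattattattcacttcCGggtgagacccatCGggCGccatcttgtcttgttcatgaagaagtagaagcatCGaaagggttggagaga
Adh1c: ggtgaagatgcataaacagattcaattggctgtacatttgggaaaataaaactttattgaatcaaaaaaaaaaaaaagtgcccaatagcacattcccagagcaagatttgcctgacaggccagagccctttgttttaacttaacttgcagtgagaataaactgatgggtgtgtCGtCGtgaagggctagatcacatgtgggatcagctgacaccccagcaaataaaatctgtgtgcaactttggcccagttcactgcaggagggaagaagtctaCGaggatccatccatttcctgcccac
The Smc3 window holds 24 CG dinucleotides at 60% GC and that of Hnrnph1 28 at 55.7% GC, against 13 at 44.3% GC for Pnisr and 3 at 43.3% GC for Adh1c. Adh1c is not typical of its set: over the matched windows of the genes above both other libraries on every surface the medians were 22 CG dinucleotides and 61.3% GC.

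Many genes of chromosome structure were lower. Smc3, a core ring subunit of cohesin, had 80.7, 76.5 and 54.7 CPM in replicate 3 on fibronectin, laminin and no coating, against 171 and 217, 165 and 229, and 179 and 183 CPM in replicates 1 and 2. Smc4, a condensin subunit, had 197, 193 and 116 CPM in replicate 3, against 355 and 448, 426 and 598, and 456 and 407 CPM in replicates 1 and 2. For both genes each replicate 3 dish lay below all 6 other attached dishes, and the shifts were -1.45 ± 0.13 and -1.43 ± 0.16. Of 15 tested genes of cohesin, condensin and their regulators, 13 (86.7%) lay below both other libraries on every surface, against 26.8% of all genes. At least 2-fold lower were 10 (66.7%), against 4.67% of all genes, and the list median was -1.27. Smc5, Smc6, Smc2, Stag2, Esco1, Pds5a and Stag1 were among the lower ones. Ncaph2, a condensin II subunit, was the member above both other libraries on every surface, at 0.25. This list was put together after the values had been seen, so its shares are a description and do not rank it among the lists. Of its 24 genes 15 were in the files.

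Splicing regulators were lower as a group. Of 31 tested SR and hnRNP genes, 23 (74.2%) lay below both other libraries on every surface and 2 (6.45%) above, against 26.8% and 24.5% of all genes. The median shift was -0.52, and 6 (19.4%) were at least 2-fold lower, against 4.67% of all genes. Hnrnph1, which binds G-rich RNA and steers exon choice, had 116, 89.4 and 90.8 CPM in replicate 3, against 234 and 255, 214 and 237, and 218 and 212 CPM in replicates 1 and 2. Clk4, a kinase of SR proteins, had 14.1, 9.60 and 8.63 CPM in replicate 3, against 29.0 and 31.2, 24.9 and 27.3, and 27.5 and 25.9 CPM in replicates 1 and 2. In both genes all replicate 3 values lay below the 6 others, with shifts of -1.22 ± 0.07 and -1.37 ± 0.10. Clk1 and Hnrnph2 had shifts of -1.17 and -1.16. Srsf2 and Srsf4 had shifts of 0.03, and Srsf9 and Hnrnpl, at 0.14 and 0.16, were the highest of the list.

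Mitotic genes split in opposite directions. Of 27 tested G2/M genes, 12 (44.4%) lay below and 11 (40.7%) above both other libraries on every surface, against 26.8% and 24.5% of all genes, and the median of -0.02 changed sign to 0.03 under library-size scaling. Cenpf, a large kinetochore protein, had 77.7, 81.8 and 66.5 CPM in replicate 3, against 195 and 192, 177 and 201, and 221 and 180 CPM in replicates 1 and 2. The shift was -1.37 ± 0.09, and the hyaluronan receptor Hmmr and the checkpoint kinases Ttk and Bub1 had shifts of -1.36, -1.24 and -1.20. Plk1, a mitotic kinase, had 200.3, 203 and 219 CPM in replicate 3, against 183 and 178, 170 and 175, and 179 and 188 CPM in replicates 1 and 2, and Cdc20, which activates the anaphase-promoting complex, had a shift of 0.22 ± 0.05. Plk1 thus lay slightly above all 6 other attached values, at 0.21 ± 0.05, while Plk4, the centriole duplication kinase, had a shift of -1.26 ± 0.11. Among 28 tested centrosome and cilium base genes 21 (75%) lay below on every surface. At least 2-fold lower were 16 (57.1%), against 4.67% of all genes. Among 26 kinesins 13 (50%) lay below and 4 (15.4%) above. Both lists were drawn up after the values had been seen.

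DNA replication genes leaned higher, with single members far lower. Of 29 tested G1/S genes, 11 (37.9%) lay above and 4 (13.8%) below both other libraries on every surface, against 24.5% and 26.8% of all genes, and the median was 0.14. The DNA polymerase alpha subunit Pola1 and the cyclin Ccne2 were far below the rest of their list, at -1.34 ± 0.11 and -1.34 ± 0.22. Ccne2 had 37.5, 32.2 and 19.4 CPM in replicate 3, against 53.2 and 84.5, 62.6 and 104, and 65.5 and 74.6 CPM in replicates 1 and 2. Its lowest dish was the one without coating.

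Zinc finger genes, many of them transcriptional repressors of the KRAB type, leaned lower. Of 158 tested genes with Zfp symbols, 77 (48.7%) lay below and 24 (15.2%) above both other libraries on every surface, against 26.8% and 24.5% of all genes. At least 2-fold lower were 36 (22.8%), against 4.67% of all genes, and the median was -0.21. Zfp667 and Zfp37 had shifts of -1.71 ± 0.15 and -1.64 ± 0.33. Zfp455l1, at -1.76, has a near-identical copy with which reads may be shared, so its value is uncertain. Among 18 chromatin regulators 8 (44.4%) lay below and 2 (11.1%) above, although the list median was 0.02. The lowest were the histone H3 methyltransferase Setd2 at -1.07 ± 0.06, the demethylase Kdm5a at -0.98 and the Mediator subunit Med13 at -0.85. Of 40 deubiquitinases of the USP family, a list drawn up after the values had been seen, 23 (57.5%) lay below and 6 (15%) above, led by Usp16 and Usp15.

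Heat shock, ribosome biogenesis and proteasome genes had members on both sides. The inducible cytosolic chaperone Hsp90aa1 had 299, 251 and 173 CPM in replicate 3, against 451 and 602, 489 and 669, and 487 and 553 CPM in replicates 1 and 2. Its close relative Hsp90ab1 had 2783, 2987 and 2775 CPM in replicate 3, against 2438 and 2615, 2628 and 2826, and 2484 and 2738 CPM in replicates 1 and 2. The shifts were -1.19 ± 0.15 for Hsp90aa1 and 0.12 ± 0.05 for Hsp90ab1, and in each gene the replicate 3 dishes lay on a single side of their own surface's other dishes. Of 15 heat shock genes 3 (20%) lay below, among them the co-chaperone Dnaja1 at -0.83, and 6 (40%) above, against 26.8% and 24.5% of all genes. Among 28 ribosome biogenesis genes 8 (28.6%) lay below, a share near that of all genes, and 4 (14.3%) above. In that list the nucleolar proteins Nop58, Gnl3, Ncl and Npm1 had shifts of -1.25, -1.17, -0.97 and -0.77. Psmc6, an ATPase of the proteasome cap, had 143, 117 and 86.1 CPM in replicate 3, against 209.7 and 231, 213 and 245, and 213 and 212 CPM in replicates 1 and 2, while 21 of the 37 proteasome genes (56.8%) lay above and 3 (8.11%) below.

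**Figure D3:**
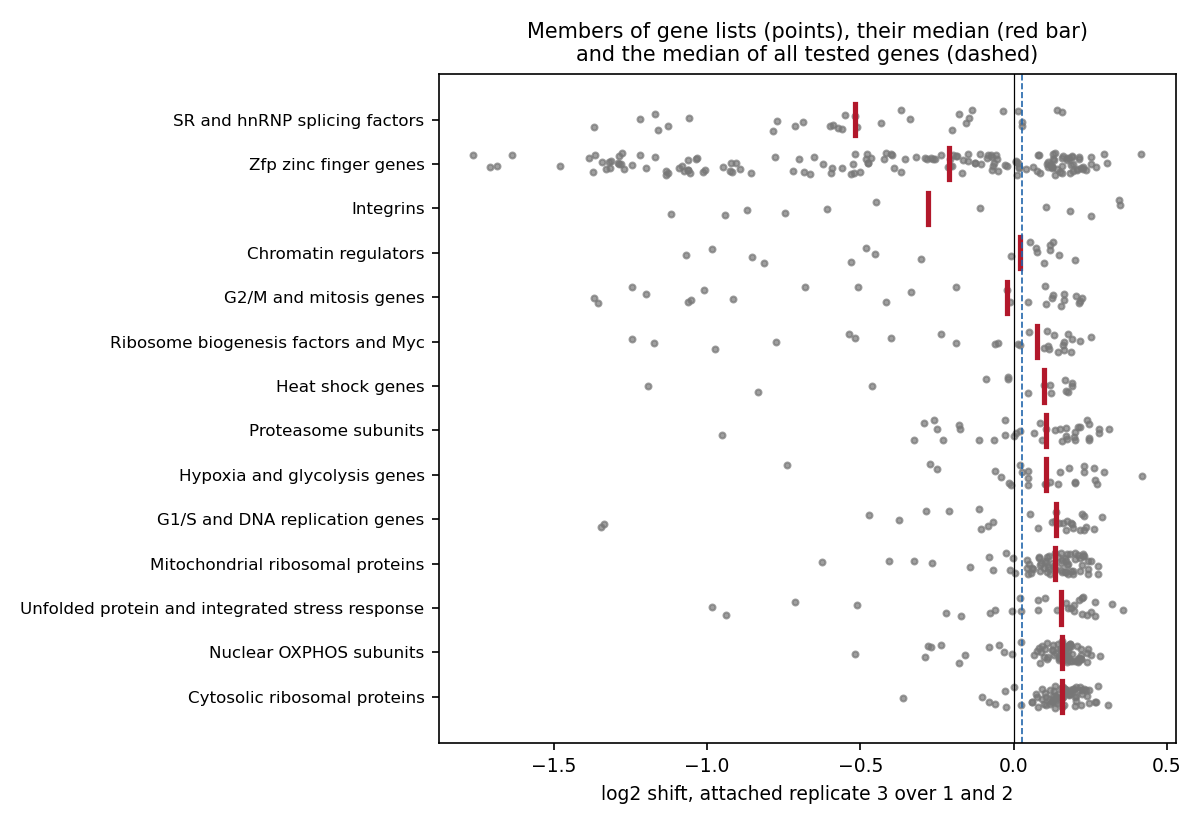
log2 shift of attached replicate 3 over replicates 1 and 2 (horizontal axis) for each tested member (points) of 14 gene lists, with the list median (red bar) and the median of all tested genes (dashed line, 0.03). Splicing factors, Zfp genes and integrins have medians below 0, while ribosomal protein and OXPHOS genes cluster just above it with few low members.

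Genes of protein synthesis and energy metabolism lay just above the other dishes, as the plot of gene lists shows. Of 72 tested cytosolic ribosomal protein genes, 48 lay above both other libraries on every surface, against 24.5% of all genes, and 1 below, with a median shift of 0.16. The gene below was Rps3a, at -0.36 ± 0.06. Nuclear genes of oxidative phosphorylation had 49 of 74 members above and 3 below, with a median of 0.16, and mitochondrial ribosomal proteins 30 of 69 above and 3 below. Glycolysis and hypoxia genes had 14 of 27 above and 2 below, with Gapdh at 0.30 and the histone demethylase Kdm3a at -0.74. The unfolded protein and integrated stress response list had 15 of 30 above and 5 below, with the chaperones Dnajb9 and Hsp90b1 at -0.98 and -0.71. The medians of these lists were above 0 also with library-size scaling, DESeq2's size factors, no filter on low counts and the ribosomal RNA genes removed. The median of all tested genes was above 0 in each as well, 0.08 with library-size scaling, and the list medians stayed above it. All of these scalings are relative, so they cannot separate a rise of these genes from the counterpart of lower genes elsewhere, which was not tested.

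Integrins and genes of the progenitor state were lower in part. Of 12 tested integrins 5 (41.7%) lay below and 1 (8.33%) above both other libraries on every surface, against 26.8% and 24.5% of all genes, with a median of -0.28. Focal adhesion adaptors and kinases did not share this lean, with 6 of 17 (35.3%) above, 5 (29.4%) below and a median of 0.07. The collagen and laminin receptor subunit Itga1 had 6.20, 5.61 and 4.93 CPM in replicate 3, against 14.2 and 10.5, 13.0 and 11.01, and 14.2 and 9.98 CPM in replicates 1 and 2, a shift of -1.12 ± 0.15. Itgb1, the common beta subunit, had 2303, 1931 and 1855 CPM in replicate 3 and 2592 to 2906 CPM in replicates 1 and 2, whereas the fibronectin receptor subunit Itga5 had 379, 433 and 474 CPM and 350.3 to 410.3 CPM. The shifts were -0.45 ± 0.06 for Itgb1 and 0.18 ± 0.05 for Itga5, so the beta subunit and this alpha subunit differed in sign. Of 18 cardiac progenitor and lineage genes in the files, 9 fell below the filter on counts. Of the 9 tested, 5 (55.6%) lay below and 0 above. Among the 5 were the Polycomb gene Bmi1 at -0.87 ± 0.09 and the growth factor receptor Pdgfra at -0.30 ± 0.13. Hand2, also among the 5, was scarce, with 0.368, 0.337 and 0.646 CPM in replicate 3 and a shift of -0.37 ± 0.30. Pdgfra had 294, 333 and 301 CPM in replicate 3, 313, 337 and 317 CPM in replicate 2 and 402, 462 and 452 CPM in replicate 1, so that replicate 3 lay close to replicate 2. Wt1, at -0.97 ± 0.28, was scarce, with 0.578, 0.225 and 0.294 CPM in replicate 3 and 0.383 to 1.41 CPM in replicates 1 and 2.

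Yap1 and the readouts Ccn1 and Ccn2 overlapped between replicate 3 and the others, whereas single Hippo core genes such as Mob1b were lower. Yap1, the transcriptional co-activator of the Hippo pathway, had 57.1, 57.5 and 57.7 CPM in replicate 3, against 59.6 and 58.2, 53.6 and 58.2, and 57.1 and 60.3 CPM in replicates 1 and 2, values that overlap. Its targets Ccn1 and Ccn2 had shifts of -0.03 ± 0.27 and -0.09 ± 0.18. Replicates 1 and 2 themselves differed, with log2 changes in replicate 2 of -0.92 ± 0.12 for Ccn1 and -0.61 ± 0.08 for Ccn2. Replicate 3 of Ccn1 lay between them on every surface, as with 60.6 CPM on laminin against 75.9 and 31.4 CPM. Ccn2 lay between them on fibronectin and laminin, and below both on no coating (77.7 against 103 and 79.4 CPM). Both shifts thus average unlike batches. The Polo-like kinase Plk2 had 48.9, 14.7 and 13.6 CPM in replicate 3, against 53.6 and 57.2, 17.9 and 15.5, and 15.7 and 15.2 CPM in replicates 1 and 2, a shift of -0.18 ± 0.07. Among 14 Hippo core genes 5 (35.7%) lay below and 1 (7.14%) above, against 26.8% and 24.5% of all genes. Their median was -0.15, and the lowest were Mob1b at -1.13 ± 0.09, Stk3 at -0.75 and Lats1 at -0.67. Among 19 YAP and TAZ targets 6 (31.6%) lay below and 1 (5.26%) above. In the list of NF-kB regulators and cytokines 7 of 20 (35%) lay below and 2 (10%) above. For lists this small, the shares below are near that of all genes, and they were not tested. Ccl2, a monocyte chemokine, had 115, 108 and 95.2 CPM in replicate 3, against 157 and 155, 219 and 215, and 218 and 211 CPM in replicates 1 and 2, while Ptgs2 and Vcam1, at -1.32 and -1.27, were at most 6.02 CPM in any attached library.

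The shift differed in size between surfaces. Over the 468 genes the median shift was -0.91 on fibronectin, -1.19 on laminin and -1.49 on no coating, and 355 genes (75.85%) followed that order, against 27.17% of all tested genes. Their summed CPM was 20770 on fibronectin, 17120 on laminin and 13270 on no coating in replicate 3, against 36190 to 41910 in attached replicates 1 and 2. Without a replicate block, edgeR's quasi-likelihood test with Benjamini-Hochberg adjustment over 10020 genes called 0 genes in each of 3 surface differences. That fit ignores the shared batches and leaves the difference between replicates 1 and 2 in the residual, so 0 calls do not show equal shifts. An unadjusted p under 0.05 was reached by 886 genes (8.84%) for fibronectin minus no coating. For laminin minus no coating it was reached by 178 (1.78%) and for laminin minus fibronectin by 518 (5.17%). DESeq2 called 11, 0 and 0 genes. The labels put each replicate number in a shared batch, and with the replicate as a block, which leaves 2 residual degrees of freedom, the shift was called higher on fibronectin than on no coating in 891 genes (8.89%) and lower in 9 (0.0898%).

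**Figure D4:**
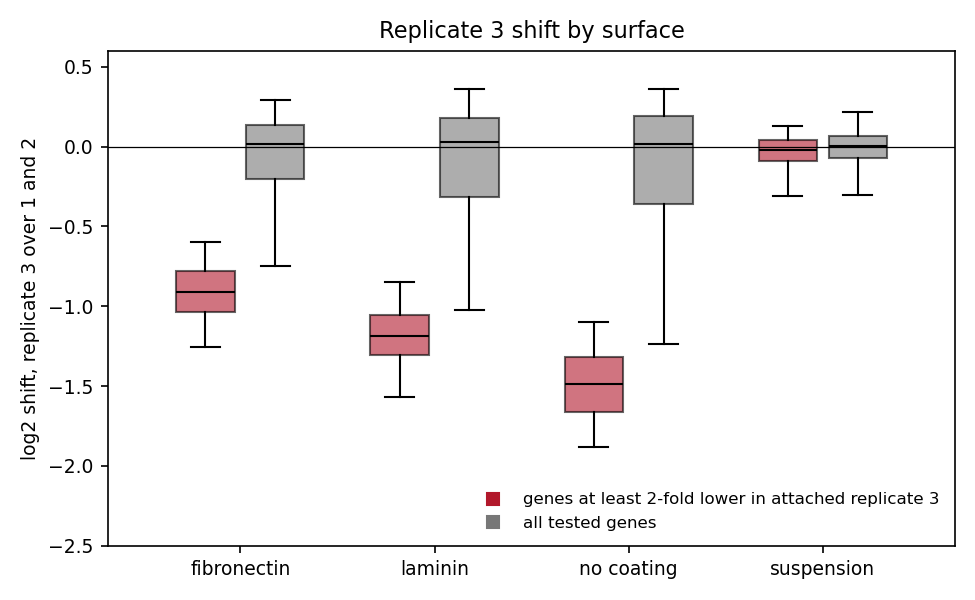
log2 shift of replicate 3 over replicates 1 and 2 (vertical axis) on each surface and in suspension, for the 468 genes at least 2-fold lower in attached replicate 3 (red) and for all tested genes (grey). Boxes are quartiles with the median, whiskers the 5th to 95th percentile; the red medians are -0.91, -1.19, -1.49 and -0.02 from left to right.

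With that block, 268 of the 468 genes (57.3%) were called higher on fibronectin than on no coating and 0 lower, with a median difference of 0.61 on the log2 scale. The difference and the choice of the 468 genes rest on the same libraries. These values are therefore a description. Hsp90aa1 differed by 0.79 ± 0.10, Bub1 by 0.90 ± 0.12 and Smc4 by 0.89 ± 0.15 (SE), and the shifts of Hnrnph1 and Pnisr differed by 0.17 ± 0.10 and 0.41 ± 0.16. Between laminin and fibronectin the shift was called higher on laminin in 50 genes (0.499%) and lower in 298 (2.97%), and 58 of the 468 were among the lower ones. Between laminin and no coating it was called higher in 10 genes (0.0998%) and lower in 1 (0.00998%). Yap1 and Plk2 showed no call in any of the 3 differences, with estimates between -0.02 and 0.08.

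The suspension libraries of the same batches were not among the libraries chosen. In suspension, 0 of 10020 genes (0.0%) were called between replicate 3 and replicates 1 and 2 by edgeR, with 97 (0.968%) at an unadjusted p under 0.05, and DESeq2 called 0. That share is below the threshold of 0.05 itself, and the count of 0 does not show that the libraries were alike. Without suspension replicate 2 edgeR called 1 gene. The lone replicate 3 library in suspension is assumed in this fit to vary like the others. Smc3 had 301 CPM in suspension replicate 3, against 272 and 303 CPM in suspension replicates 1 and 2. Hsp90aa1 had 696 CPM, against 615 and 754 CPM, and Hnrnph1 had 270.4 CPM, against 291 and 268 CPM. In each of these genes the replicate 3 value fell between the other suspension values. Of the 14 lowest named genes, however, suspension replicate 3 lay below both other suspension libraries in 9, between them in 4 and above in 1. Kif20b had 175 CPM in suspension replicate 3, against 219 and 214 CPM in suspension replicates 1 and 2, and Cep290 had 30.3 CPM, against 41.0 and 40.6 CPM. Over the 468 genes the median suspension shift was -0.02, and suspension replicate 3 lay below both others in 146 (31.2%) and above both in 88 (18.8%), against 24.36% of all tested genes below and 25.16% above. In suspension these genes therefore leaned in the attached direction by count, with a median near 0. Cenpf also lay below both, with 277 CPM in suspension replicate 3 and 411 and 392 CPM in suspension replicates 1 and 2, a difference of -0.54 ± 0.14 (edgeR adjusted p = 0.9998).

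Across the 10020 genes the attached shift and the suspension shift had a Pearson correlation of 0.06, a description over genes that are not independent. Shifts on any 2 attached surfaces correlated between 0.75 and 0.85. Tested directly in edgeR, the attached shift minus the suspension shift was called in 1177 genes (11.7%), 11 higher (0.11%) and 1166 lower (11.6%), but the chosen comparison is a component of it, so it is a description too. It was 756 genes without the laminin replicate 3 library. The 11 higher genes were 23 with the replicate block and 57 without suspension replicate 2. The 468 genes also differed between attached and suspended cells outside batch 3. In 340 of them (72.65%) all 6 attached libraries of replicates 1 and 2 lay below both suspension libraries of replicates 1 and 2, against 19.26% of all tested genes, with a median log2 difference of -0.45. For replicate 3 the median difference between the attached libraries and the suspension library was -1.62. These differences share the attached replicates 1 and 2 with the comparison that chose the genes.

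Replicate 2 against replicate 1 was another batch difference on the same surfaces, with 1 library per surface on each side. Attached replicate 3 was set against 6 libraries, so the counts of called genes are not on the same footing. There edgeR called 1107 of 10020 genes (11%), 467 higher (4.66%) and 640 lower (6.39%), and DESeq2 called 640. Of the 468 genes 8 were called higher and 5 lower, and the median was 0.08. Among the named genes Cp fell by 0.59 ± 0.12 in replicate 2 (edgeR adjusted p = 0.011) and Nsrp1 rose by 0.47 ± 0.13 (adjusted p = 0.049), while Inpp5j, among the 14 highest genes, rose by 0.79 ± 0.07 (adjusted p = 0.00036). Inpp5j had 21.8, 26.4 and 26.3 CPM in replicate 3, 20.95, 22.2 and 21.6 CPM in replicate 2 and 11.8, 13.2 and 12.6 CPM in replicate 1, so that replicate 3 lay close to replicate 2. Of the named genes, 5 of the 14 highest and 2 of the 14 lowest were called between replicates 2 and 1. The count of 1107 depended on single libraries. It was 313 without fibronectin 2, 360.0 without laminin 1, 260.0 without laminin 2, 649 without no coating 1 and 317 without no coating 2, and it was 2013 without fibronectin 3. Fibronectin 3 is on neither side of this comparison, but the fit keeps surface differences of the replicate 3 shift in its residual.

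The lower genes lay in gene-poor parts of the genome. Counted as protein-coding genes within 0.5 Mb on each side in RefSeq's GRCr8 table, the 468 genes had a median of 8 neighbours, the 2458 higher genes 24 and all tested genes 15. Among 933 genes with 0 to 4 neighbours, 52.84% lay below both other libraries on every surface and 7.503% above, with a median shift of -0.28. Among 1059 genes with 40 to 73 neighbours 4.249% lay below and 45.14% above, with a median shift of 0.16. Over 9973 genes the Spearman correlation of the shift with the number of neighbours was 0.45, against 0.05 for attached replicate 2 over 1 and -0.08 for suspension replicate 3 over 1 and 2. It was 0.34 on fibronectin, 0.43 on laminin and 0.46 on no coating. Neighbouring genes share their windows, and gene length and transcript base composition, which vary with gene density, were not measured here.

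**Figure D5:**
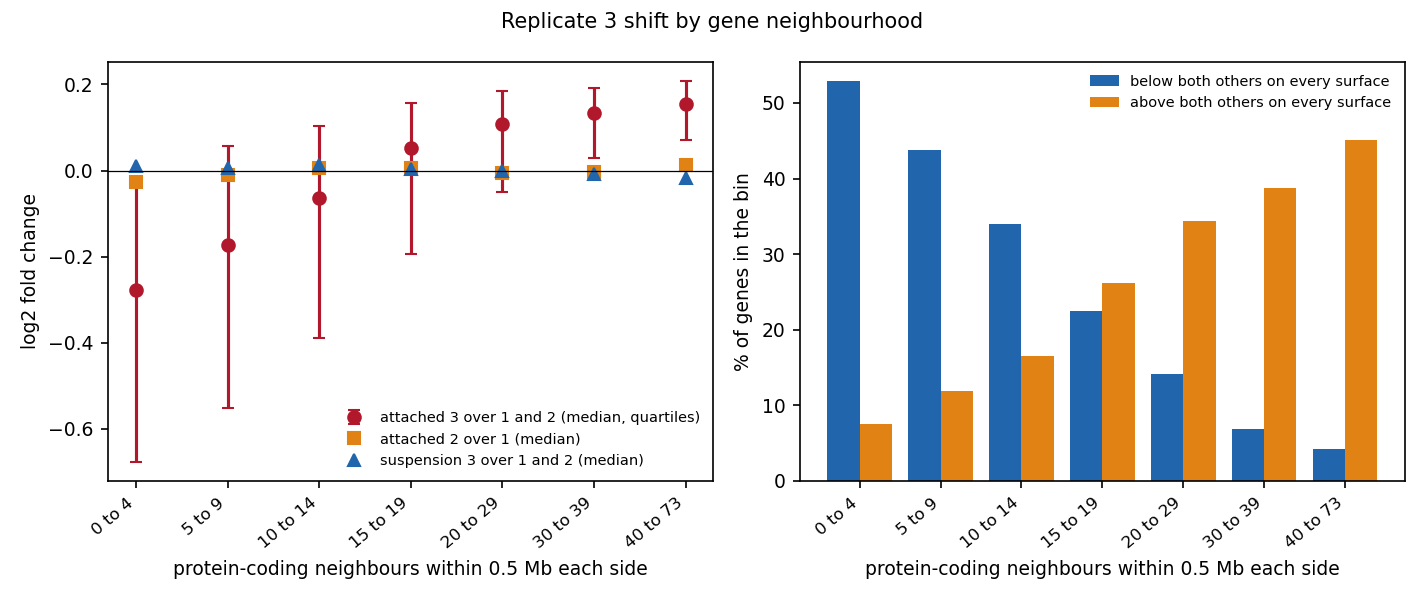
Left, median log2 fold change (vertical axis; bars are quartiles for attached replicate 3) by number of protein-coding neighbours (horizontal axis) for 3 comparisons of replicates. Right, percent of genes in each bin below or above both other libraries on every surface; the share below is 52.84% in the bin of 0 to 4 neighbours and 4.249% in the bin of 40 to 73.

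Promoter sequence differed much less than neighbourhood. Windows were matched for 401 of the 468 genes and 8226 of the 10020 tested genes. Their median GC content was 60.3% for the 468 genes, against 61.3% for all tested genes, and the median number of CG dinucleotides 22, against 21. Hr and Agap2 were not matched. The Spearman correlation of the shift with promoter GC content was 0.03. Motifs were searched on both strands, and the GC box, the ETS core and the cyclic AMP response element contain CG themselves. The CG dinucleotide occurred in 99.8% of the windows of the 468 lower genes, against 99.6% of those of all tested genes and 94.8% of all 27457 windows in the table. The GC box GGGCGG was in 57.4% of the windows of the 468 lower genes, against 64.2% of those of all tested genes and 34.9% of the table. The ETS core CCGGAAG was in 23.4% of the lower genes' windows, against 19.5% of all tested genes and 9.22% of the table, and the cyclic AMP response element TGACGTCA in 3.99%, against 3.37% and 1.91%. The CCAAT box was in 41.4% of the lower genes' windows, against 38.1% of all tested genes and 37.7% of the table, and the TATA box TATAAA in 8.48%, against 6.22% and 14.3%. In the 2458 higher genes CCAAT was in 41.5% of the windows and the ETS core in 22.8%, shares close to those of the 468 lower genes. These shares of single motifs were not tested. Of the windows printed above, that of Hnrnph1 holds the GC box, that of Pnisr the ETS core, that of Smc3 TATAAA and that of Adh1c CCAAT.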

How the data were processed

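Each library came as its own table of whole-number counts that the authors deposited, with Entrez numbers as gene keys per the file headers. The submitters' processing notes name rn4 as the genome build. No aligner, counting program or strand setting was found in the labels or headers, so reads of antisense or near-identical genes may be mixed. RNA was taken up in TRIzol and libraries made with a stranded total RNA kit, per the labels' protocols. Of 16924 identifiers 16761 matched a symbol in RefSeq's GRCr8 table, and the other 163 held at most 0.357% of a library.

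Counts were tested with edgeR 4.0.16 (R 4.3.3) by glmQLFit and glmQLFTest, with filterByExpr on the 4 groups (10020 genes), TMM factors of 0.962 to 1.03 and Benjamini-Hochberg adjustment at 0.05. The attached shift is replicate 3 over replicates 1 and 2 with the surface as a block (biological coefficient of variation 0.0804, 5 residual degrees of freedom). The suspension test used all 12 libraries. CPM are TMM-scaled, except that the sums of marker lists are scaled by library size alone. A fold change is given ± SE. DESeq2 1.42.0 was an alternative, with other scalings, no filter, ribosomal RNA genes removed, the replicate block, and single libraries left out. The tests were run on simulated data with known changes first.

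Replicate numbers pair the samples, because the labels give each number a shared batch. Deviations from the group means correlated between 0.514 and 0.853 over 9 same-number pairs of attached libraries. Over 18 different-number attached pairs the range was -0.717 to 0.346. For attached with suspension libraries of replicate 3 it was 0.036 to 0.0676. For attached replicate 1 or 2 with the suspension library of the same number it was 0.153 to 0.304.

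The comparison, members and gene lists were chosen with earlier results of these data known. The lists of cohesin and condensin, centrosome, kinesin and USP genes were added after values had been seen. The naming rule takes the 14 highest and 14 lowest shifts among genes separated on every surface with a mean log2 CPM of at least 2, up to 4 genes with the largest shifts per list, Yap1, Plk2, Ccn1 and Ccn2, and up to 6 called genes per other test. Other genes named, such as Hsp90ab1, Itgb1, Itga5 and Cdc20, were picked after their values were seen. The values of 1 further gene are not reported here.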

Additional observations from a re-analysis of the deposited data

Results flagged for a closer look

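The attached shift of replicate 3 minus its suspension shift was called in 1177 genes by edgeR. The comparison that was chosen for its values is a component of this difference, so the count is a description. The replicate 3 shift was also called different between surfaces once the replicate was a block: 900 genes for fibronectin minus no coating, 348 genes for laminin minus fibronectin and 11 genes for laminin minus no coating. These use the same replicate 3 libraries. The surface counts come from a fit with 2 residual degrees of freedom, and the same tests called 0 genes without the block.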

How the results depend on the processing

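No named gene separated on every surface, or called in another test, changed sign under the settings tried. Counted once per named gene and setting, 3769 attached shifts moved by less than the SD of the gene's shifts on the 3 surfaces. The other 87 moved by more. This SD is wide where the shift differed between surfaces. With the replicate block, the replicate 3 shift gave 900 calls for fibronectin minus no coating instead of 0. Laminin minus no coating gave 11 calls and laminin minus fibronectin 348, also instead of 0. The block takes the difference between replicates 1 and 2 out of the residual. For fibronectin minus no coating, Hsp90aa1 was at 0.78 ± 0.30 without the block and 0.79 ± 0.10 with it. The SE did not shrink in every gene, with 0.59 for Adamts12 without the block and 0.66 with it. DESeq2 without the block called 11 for fibronectin minus no coating. No further cause was tested. The block moved no other total by over 1.5 times, but it raised the higher calls of attached replicate 3 to 2538 instead of 1490 (47.1% higher, with 2847 lower) and those of the attached minus the suspension shift to 23 instead of 11. DESeq2 called 640 genes for attached replicate 2 against 1, and library-size scaling put that split at 53% higher instead of 42.2%. Leaving out single libraries gave 2106 to 4369 calls for attached replicate 3, 312 to 704 genes past 2-fold, 0 to 1 for suspension, 756 to 1601 for the attached minus the suspension shift, 260.0 to 2013 for replicate 2 against 1 and 0 to 0 for each surface difference without the block. Without the block, the other settings gave 3829 to 4953 calls for attached replicate 3. A replicate 3 term for each surface, chosen after seeing the data, gave 3438 calls, 495 genes past 2-fold and 0 in suspension. The list medians of matrix proteases, interferon-responsive genes, G2/M genes and FGF, PDGF and VEGF genes, all within 0.05 of 0, changed sign under at least 1 scaling. With 3 dishes of 1 batch, batch 3 and any other feature shared by these dishes cannot be told apart. Low counts limit Wt1, Hand2, Ptgs2 and Vcam1.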

Other observations

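On the attached surfaces, lipid synthesis genes separated replicate 2 from replicate 1. Of 26 tested sterol and fatty acid synthesis genes, 23 fell and 0 rose in replicate 2 by edgeR's quasi-likelihood test at an adjusted p under 0.05, with a median log2 change of -0.37, against 6.39% of all genes lower and 4.66% higher. Scd, a fatty acid desaturase, had 110, 85.8 and 98.0 CPM in replicate 2 on fibronectin, laminin and no coating, against 240, 210 and 215 CPM in replicate 1, and fell by 1.18 ± 0.06 (adjusted p = 2.2e-05). Its replicate 3 values of 185, 169 and 158 CPM lay between. The ribosomal RNA genes took 1.63%, 0.448% and 1.85% of the counts in replicate 2 on these surfaces, against 4.24%, 1.38% and 3.06% in replicate 1, and their part in these list counts was not tested. Rn5-8s fell by 1.51 ± 0.11 (adjusted p = 8.7e-05) and Rn45s by 1.31 ± 0.18 (adjusted p = 0.0025) in edgeR's test. Of 29 G1/S and replication genes 15 rose and 0 fell, of 28 ribosome biogenesis genes 11 rose and 0 fell, and of 17 interferon-responsive genes 10 fell and 0 rose.

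Other genes called in replicate 2 were the xenobiotic-metabolising Cyp1a1, which rose by 1.40 ± 0.11 (adjusted p = 8.7e-05), and the collagen-binding integrin Itga11, which fell by 1.20 ± 0.08 (adjusted p = 6.7e-05). Itga11 had 22.02, 24.0 and 24.0 CPM in replicate 3, 20.8, 23.5 and 20.4 CPM in replicate 2 and 50.6, 46.5 and 52.0 CPM in replicate 1. In suspension Itga11 had 22.7 CPM in replicate 3, 23.2 CPM in replicate 2 and 58.2 CPM in replicate 1, so that replicate 1 stood apart in all 4 groups.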
